A study of Drosophila melanogaster with 18 samples.

Results

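The nuclear tRNA genes of Drosophila melanogaster were examined in targeted DamID (TaDa) data from embryonic mesoderm, as the genes of the Release 6 annotation whose symbol begins with tRNA: and that lie on chromosome arm 2L, 2R, 3L, 3R, 4 or X. There were 295 such genes among 18164 annotated genes of these arms. GATC sites inside a tRNA gene or at most 500 bp from it numbered 596 of 373716, or 0.159% of the sites. Of the 295 genes, 271 had at least 1 such site and 24 had none, so the latter could not be measured. Arm 2R held 100 of the genes, 3R 79, 3L 49, 2L 41 and X 26, and arm 4 held 0.

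In TaDa, a GAL4 driver switches on a low level of a bacterial Dam methylase fused to a protein, here a subunit of RNA polymerase II (Dam-PolII), and GATC sites that the fusion touches become methylated and are sequenced. Embryos of stages 10 to 13 were pooled for each of 18 libraries, which form 6 groups of 3. All 6 groups are labelled as carrying the UAS-driven Dam-PolII fusion. In the Dam-PolII groups it was expressed alone, with bap-GAL4 (visceral mesoderm, the muscle layer of the gut) or with twi2xPE-GAL4 (mesoderm at large). The Alk.DN groups also express UAS-Alk.EC.MYC, the outer part of Alk, a receptor tyrosine kinase, which acts as a dominant negative, with each driver. The Jeb groups also express UAS-jeb, the secreted ligand of Alk, with each driver. By the labels every library carries the polymerase fusion and none Dam alone, so contact of the fusion and access of Dam to open chromatin cannot be told apart in a level. Each library pools many embryos, and more driver-expressing cells and more methylation per cell cannot be told apart either.

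tRNA genes are transcribed by RNA polymerase III, not by the polymerase that carries Dam here. Their promoter lies inside the gene: the factor TFIIIC binds an A box and a B box in the transcribed sequence and brings TFIIIB and polymerase III to the start, and a run of T ends the transcript. The genes are short, occur in many identical copies, and often stand in clusters or inside introns of protein-coding genes. A symbol such as tRNA:Thr-CGT-1-3 gives the amino acid that the tRNA carries, its anticodon, the sequence family and the copy, and Psi marks a pseudogene.

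The following genes carry the main results and show the B box, in capitals, as the letters GNTCNANNC on the gene strand. Sequences are from the RefSeq genome of assembly Release 6 plus ISO1 MT, and gene positions are from the Ensembl annotation of Release 6. The genes lie at chr3R:20891658-20891729 (plus strand), chr3R:6819894-6819966 (plus), chr3L:17339909-17339980 (minus), chr3R:18108993-18109064 (plus), chr2L:8683806-8683877 (minus) and chr3R:12206575-12206646 (plus), in the order printed.
tRNA:Thr-CGT-1-3: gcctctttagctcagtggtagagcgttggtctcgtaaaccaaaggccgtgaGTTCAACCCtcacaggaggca
tRNA:Lys-TTT-2-1: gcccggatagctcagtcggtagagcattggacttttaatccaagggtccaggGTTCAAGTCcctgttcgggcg
tRNA:Pro-CGG-2-2: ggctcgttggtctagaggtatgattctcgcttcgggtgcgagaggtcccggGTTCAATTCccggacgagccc
tRNA:Gly-TCC-1-4: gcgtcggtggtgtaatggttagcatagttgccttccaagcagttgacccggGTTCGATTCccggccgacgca
tRNA:Asp-GTC-1-9: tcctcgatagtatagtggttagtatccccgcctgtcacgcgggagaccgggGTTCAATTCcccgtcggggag
tRNA:Thr-TGT-1-1: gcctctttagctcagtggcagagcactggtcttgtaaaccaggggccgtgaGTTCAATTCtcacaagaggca

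The B box letters were found on the gene strand in 292 of the 295 genes (99.0%), against 3.69% of windows of 73 bases across the 6 arms, and TTTT was found within 20 bases after the gene end in 247 (83.7%), against 14.4% of windows of 20 bases. A match of letters is a description of the sequence only.

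A tRNA gene can be read inside its own transcript only where that sequence happens to hold GATC. This was so in 110 of the 295 genes, and in these genes the methylated letters are part of the tRNA itself. In the 2 genes printed next GATC is in capitals, at chr3R:17622546-17622618 (plus) and chrX:3427452-3427523 (minus). The third sequence is the site 130 bp upstream of tRNA:Thr-CGT-1-3, at chr3R:20891505-20891548, the only site of that gene's window.
tRNA:Ala-AGC-2-4: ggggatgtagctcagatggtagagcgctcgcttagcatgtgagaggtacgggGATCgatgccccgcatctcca
tRNA:Gln-TTG-2-1: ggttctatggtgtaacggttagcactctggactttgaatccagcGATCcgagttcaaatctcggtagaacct
GATC site of tRNA:Thr-CGT-1-3: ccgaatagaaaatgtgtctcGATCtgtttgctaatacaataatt

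The genes repeat one another in sequence. The 295 genes had 100 distinct sequences, and 238 genes shared their whole sequence with at least 1 other. Another tRNA gene lay within 1000 bp of 190 of them. Introns of protein-coding genes held 130, 7 overlapped an exon of a protein-coding gene and 158 lay between protein-coding genes. A window therefore often holds the neighbour's sites or those of a host gene: the 271 measured genes had 252 distinct sets of sites. Of the 127 sites inside tRNA genes, 68 had flanks of 50 bases that occur in the genome at that place alone, so a read there could be placed, and the other 59 did not. Of all 596 sites 514 had unique flanks.

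The libraries held 1624349 to 14095376 counts, and 3 counts, taken as the floor of detection, corresponded to 0.213 to 1.85 CPM (the count as a share of the library total, times 1000000). The floor and the errors given cover counting and the spread between libraries only. The 6 visceral mesoderm markers summed to 407 CPM per kb in bap Dam-PolII and 173 in twi Dam-PolII, and the 4 mesoderm markers to 98.3 and 181, where the median gene had 2.30 and 2.95. In the Alk.DN groups the visceral mesoderm markers summed to 169 (bap) and 74.3 (twi), the mesoderm markers to 120 and 107, and the median gene had 4.36 and 5.05. Markers of other tissues were read too. The 2 genes listed for endoderm summed to 16.0 in bap Dam-PolII but to 128 in twi Dam-PolII. Of this, srp had 116, more than any mesoderm marker there, and GATAe had 12.3. The twi sum thus rests on srp, and the tissue that its signal came from was not tested. Neuron markers summed to 26.0 to 38.2 and hemocyte markers to at most 5.38. The part of these marker levels in the tRNA results was not tested. Some libraries went against their labels. The first exon of jeb read 249 to 621 CPM in Jeb replicates 2 and 3 and 367 to 470 in bap Dam-PolII, a group labelled as without the transgene, but 5.57 and 4.93 in replicate 1 of bap and twi Jeb, within the 2.40 to 13.2 of the remaining libraries. The exons of Polr2A, the largest subunit of polymerase II, read 2043 to 2088 CPM in bap Dam-PolII, 260 to 269 where twi drove the same genotype, and 31.8 to 52.6 in the 6 Alk.DN libraries, and whether these carry the same fusion was not tested. Sites with no adjoining fragment that has a purine after GATC at both ends held 14.5% and 12.9% of counts in these replicates 1, and over 54% in every other library. Names of groups below are those of the labels, and the part of these differences in the results was not tested.

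GATC sites near tRNA genes held more counts than other sites in every library. They took 0.433% ± 0.00877 (bap) and 0.478% ± 0.0167 (twi) of all counts in the Dam-PolII groups, and 0.649% ± 0.0204 (bap) and 0.701% ± 0.00582 (twi) in the Alk.DN groups (SD, n = 3 each). The shares in bap Jeb and twi Jeb were 0.474% ± 0.0610 and 0.475% ± 0.0395. Per site this was 7.26 CPM against 2.65 at other sites in bap Dam-PolII, a ratio of 2.74, and the highest ratio was 4.56 in twi Alk.DN. Much of the sum came from sites of repeated sequence. With only sites of unique flanks, the ratio was 1.30 in bap Dam-PolII, 1.76 in twi Dam-PolII, 2.44 in bap Alk.DN and 3.06 in twi Alk.DN.

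The share was highest in the Alk.DN groups, and all 3 Alk.DN libraries lay above all 3 Dam-PolII libraries with each driver. An exact two-sided permutation test of 3 against 3 libraries can give no p below 0.1, so no single value of this kind could pass 0.05. The percentage of sites with a count moved with part of this result. Over all sites it was 44.3% to 50.9% in the Dam-PolII libraries, 46.8% to 50.8% in bap Alk.DN and 72.3% to 75.4% in twi Alk.DN. At the tRNA sites it was 71.1% ± 3.98 in bap Dam-PolII, 73.4% ± 2.69 in bap Alk.DN, 71.4% ± 2.67 in twi Dam-PolII and 89.5% ± 1.03 in twi Alk.DN. Library totals were 6861886 to 10140429 counts in bap Dam-PolII and 4275192 to 5292768 in bap Alk.DN. With twi they were 6056257 to 9854555 in Dam-PolII and 9519342 to 14095376 in Alk.DN. The part of depth and of this percentage was not tested.

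Starts of protein-coding genes are where polymerase II gathers, so tRNA sites were set against other sites at equal distance from the nearest protein-coding start, in 7 distance classes weighted as the tRNA sites fall. Of the 596 sites 75 lay within 500 bp of such a start and 207 over 5000 bp away. On the scale of log2(CPM + 1), which understates differences between low sites, tRNA sites exceeded the others by 0.62 ± 0.015 in bap Dam-PolII and 0.79 ± 0.026 in twi Dam-PolII. The difference was 0.92 ± 0.029 in bap Alk.DN and 1.11 ± 0.035 in twi Alk.DN (SD, n = 3). It was positive in all 18 libraries, and with each driver the 3 Alk.DN libraries did not overlap the 3 Dam-PolII libraries. In bap Jeb it was 0.60 ± 0.12 and in twi Jeb 0.67 ± 0.12, and the lowest library of each was replicate 1, with 0.46 and 0.53. Without it the means were 0.66 and 0.73. The differences were smaller, 0.14 in bap Dam-PolII and 0.40 in twi Dam-PolII, over the 188 tRNA sites with a count in every library, and 0.64 and 0.87 in the Alk.DN groups.

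**Figure D1:**
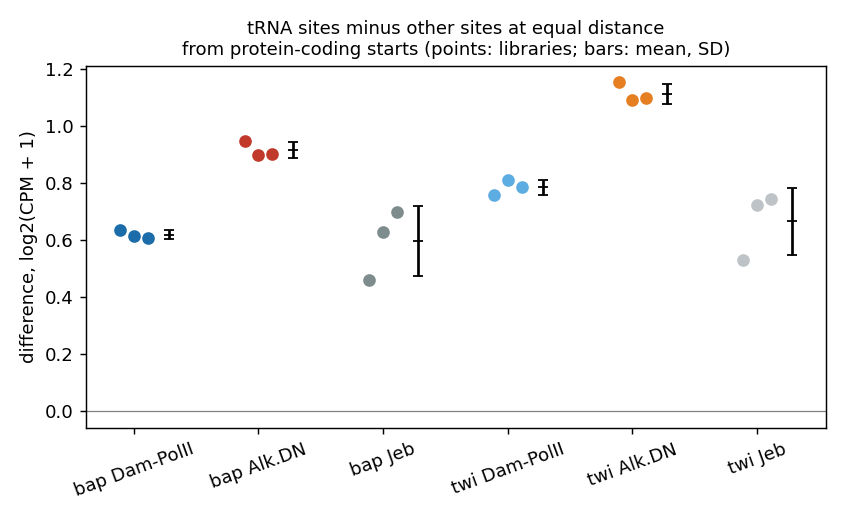
Mean difference in log2(CPM + 1) between GATC sites near tRNA genes and other sites at equal distance from protein-coding starts, for each of 18 libraries (points) in 6 groups, with the mean and SD of each group as bars. Every library lies above 0, and the Alk.DN libraries lie above the Dam-PolII libraries with both drivers, while Jeb replicate 1 is the lowest Jeb library of each driver.

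The difference varied with the distance class. Right at protein-coding starts, within 250 bp, the 32 tRNA sites did not exceed the other sites in bap Dam-PolII (-0.13) and bap Jeb (-0.03). In every other class and group the mean difference was positive. In every group but bap Alk.DN it was largest for the 110 sites 2001 to 5000 bp away, with 1.15 in bap Dam-PolII and 1.48 in twi Alk.DN. In bap Alk.DN it was 1.17 there and 1.19 for the 43 sites 251 to 500 bp away.

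**Figure D2:**
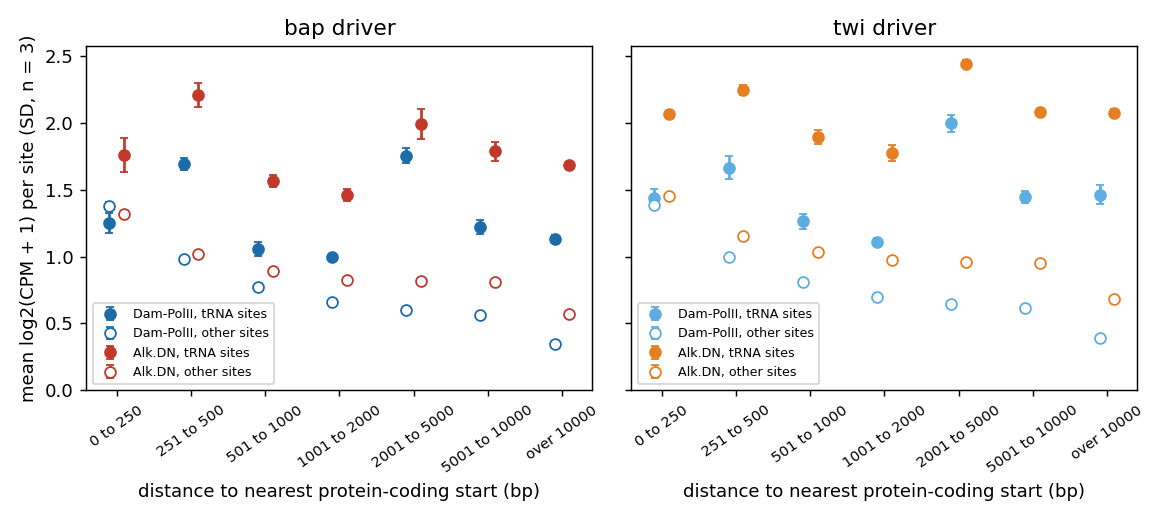
Mean log2(CPM + 1) per site of tRNA sites (filled) and other sites (open) in Dam-PolII and Alk.DN, by class of distance to the nearest protein-coding start (bp), with the SD over 3 libraries, for the bap (left) and twi (right) driver. tRNA sites lie below other sites only within 250 bp in bap Dam-PolII, and the gap is widest at 2001 to 5000 bp in bap Dam-PolII and in twi Alk.DN (1.15 and 1.48).

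The signal fell with distance beyond 500 bp, and in Alk.DN it was highest inside the genes. Sites inside a tRNA gene had a mean log2(CPM + 1) of 1.36 ± 0.044 in bap Dam-PolII, 1.97 ± 0.019 in bap Alk.DN, 1.50 ± 0.033 in twi Dam-PolII and 2.27 ± 0.020 in twi Alk.DN. In Dam-PolII, sites 251 to 500 bp away were close to those inside, with 1.29 ± 0.020 (bap) and 1.53 ± 0.017 (twi), and in twi the 251 to 500 bp class had the higher mean. Sites 2001 to 5000 bp away had 0.75, 1.00, 0.80 and 1.16 in the same order, and all sites of the arms had 0.63, 0.81, 0.67 and 0.94. In the Alk.DN groups the upstream side was higher than the downstream side: within 500 bp the mean was 1.82 ± 0.034 upstream and 1.51 ± 0.063 downstream in bap Alk.DN, and 2.17 ± 0.024 and 1.85 ± 0.032 in twi Alk.DN. The libraries of the 2 sides did not overlap in either of these groups. In the Dam-PolII groups the sides were 1.22 ± 0.030 and 1.26 ± 0.028 with bap, and 1.47 ± 0.037 and 1.46 ± 0.047 with twi, and their libraries overlapped.

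**Figure D3:**
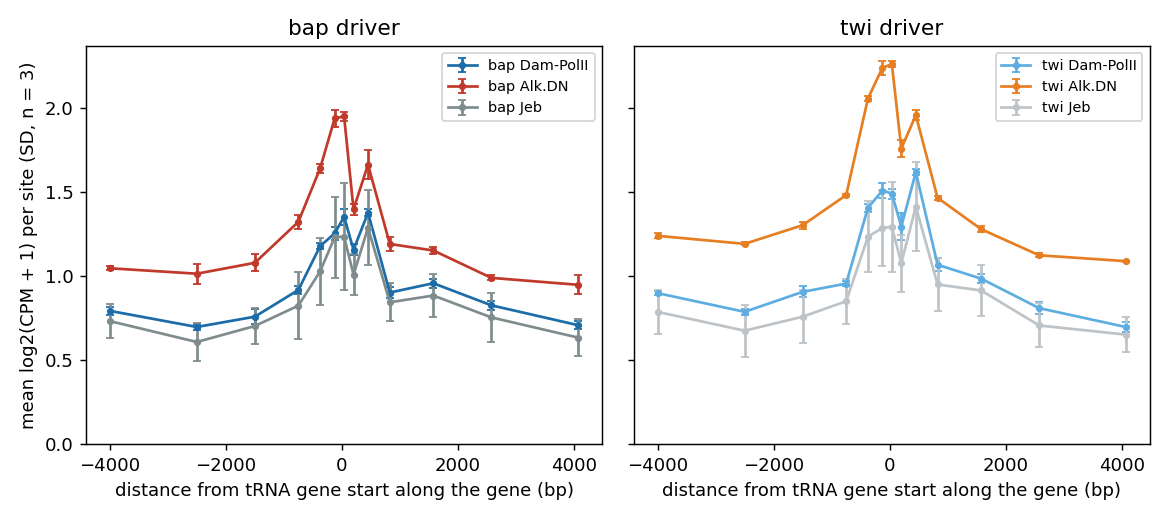
Mean log2(CPM + 1) per GATC site by distance from the tRNA gene start along the gene (bp, upstream negative), for each group, with the SD over 3 libraries, for the bap (left) and twi (right) driver. The Alk.DN curves are highest inside the genes and just upstream, where sites inside reach 1.97 (bap) and 2.27 (twi), dip just downstream, and fall with distance.

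Levels differed greatly between tRNA genes. Per site of the window, the median of the 271 genes was 1.28 CPM in bap Dam-PolII and 3.80 in twi Alk.DN, while the 10 highest genes took 58.5% and 45.8% of the sum. Between 1 and 7 genes had 0 counts in a whole group. By amino acid, the 6 histidine tRNA genes had the highest median, 112 CPM per site in bap Dam-PolII, and the serine, arginine, glutamate and aspartate genes had medians of 0.44, 0.28, 0.23 and 0.34. By arm, the 26 genes on X had the lowest median, 0.31 CPM per site in bap Dam-PolII, against 2.08 for the 2R genes. The medians inside and outside protein-coding genes were 1.32 and 1.17.

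Copies with the same sequence read very differently. The 12 measured copies of tRNA:Gly-GCC-1, a glycine tRNA, ranged from 0.07 (tRNA:Gly-GCC-1-8) to 4.24 CPM per site (tRNA:Gly-GCC-1-5) in bap Dam-PolII and from 0.22 to 33.5 for the same copies in twi Alk.DN. The 11 copies of the alanine tRNA tRNA:Ala-AGC-2 ranged from 0 (tRNA:Ala-AGC-2-9) to 31.4 CPM per site (tRNA:Ala-AGC-2-1) in bap Dam-PolII.

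A cluster of histidine tRNA genes on 2R had the highest signal. Its 9 sites summed to 1680 ± 101 CPM in bap Dam-PolII, 38.8% of the counts at all tRNA sites, and to 35.5% in bap Alk.DN, 24.0% in twi Dam-PolII and 26.7% in twi Alk.DN. Most came from 1 site (79.1% of the cluster in bap Dam-PolII and 66.4% in twi Alk.DN), the one inside tRNA:His-GTG-1-4, which starts at 12336423 and whose right flank occurs 5 times in the genome. It read 1272, 1408 and 1304 CPM in bap Dam-PolII against 1693, 1712 and 1569 in bap Alk.DN. In twi Dam-PolII it read 813, 796 and 782. It was the highest of all sites in all 6 Alk.DN libraries, and the 3 groups just given did not overlap. The other sites of its window, at 12336701 and 12336738, read at most 45.0 CPM in any library, and the pseudogene tRNA:His-GTG-2-1Psi shares all 3. In the same cluster, the site inside tRNA:His-GTG-1-3 read 192 ± 36.9 CPM in bap Dam-PolII, 272 ± 22.9 in bap Alk.DN, 149 ± 8.76 in twi Dam-PolII and 247 ± 6.43 in twi Alk.DN. The 2 lowest tested genes, tRNA:Pro-CGG-3-1 in an intron of ec and tRNA:Asp-GTC-1-3 in an intron of dachs, had means over groups of 0.143 and 0.177 CPM per site.

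Blocking Alk signalling was followed with each driver by comparing Alk.DN with Dam-PolII. Counts were summed over each gene's window and tested over all genes of the arms with edgeR's quasi-likelihood test, with Benjamini-Hochberg adjustment and a call at an adjusted p under 0.01. Fold changes use TMM scaling, which removes a shift common to most genes, so a fold change can be smaller than the ratio of the CPM values, or differ from it in sign, as for tRNA:His-GTG-1-4 with bap (-0.18, not called). In the bap comparison, 39 of 201 tested tRNA genes were called higher (19.4%) and 11 lower (5.47%). Over all 14984 genes 16.8% were called higher and 21.1% lower, 37.9% in all. Genes with at most 11 sites in their window, the highest number a tRNA gene had, gave 14.4% and 17.6%. The median log2 fold change was 0.73 for the tRNA genes and 0.10 for all genes tested.

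The twi comparison also had more tRNA genes called higher than lower. Of 242 tested tRNA genes 45 were called higher (18.6%) and 9 lower (3.72%), against 12% and 20.2% of all genes, 32.2% in all, and 9.26% and 17.0% of genes with at most 11 sites. The median log2 fold change was 0.68 for the tRNA genes and 0.18 for all genes. The tRNA calls fell from 54 to 27, 24 and 30 when twi Alk.DN replicate 1, 2 or 3 was left out. With all 18 libraries in 1 fit the calls were no longer mostly higher. In the bap comparison 6 tRNA genes were called higher and 6 lower, against 4.16% and 7.78% of all genes. In the twi comparison 0 were called higher and 2 lower, against 0.54% and 4.52%. The median log2 fold change of the tRNA genes in that fit was 0.59 (bap) and 0.64 (twi), against 0.06 and 0.15 for all genes. Scaled by total counts, the median of all genes moved up by 0.52 in both comparisons and the calls became 75 higher of 81 and 94 higher of 98, while the tRNA median stayed 0.63 (bap) and 0.51 (twi) above that of all genes.

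The genes called with both drivers were 17 higher and 2 lower, and 0 were called in opposite directions. The 17 were 43.6% of those called higher with bap and 37.8% of those with twi, and the drivers share no libraries. Over all genes, 1080 were called higher with both drivers, or 43.0% of those called higher with bap and 53.8% of those with twi, and 2037 were called lower with both, or 64.3% and 60.2%. The share for tRNA genes was thus about that of all genes with bap and below it with twi, a difference that was not tested. The 17 held 3 copies of the threonine tRNA tRNA:Thr-CGT-1 (which share sites), 3 aspartate, 3 valine, 2 lysine and 2 histidine genes (which share 3 sites). By place, 20 of the 93 tested genes over 5000 bp from a protein-coding start were called higher with bap and 1 lower, against 10 and 2 of 49 within 1000 bp. With twi these were 16 and 4 of 103, and 17 and 1 of 63. Over all genes at any distance, 16.8% were called higher and 21.1% lower with bap, and 12% and 20.2% with twi. The calls of all genes were not split by distance, so whether these counts are particular to tRNA genes was not tested. Neighbours with shared sites are counted separately.

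**Figure D4:**
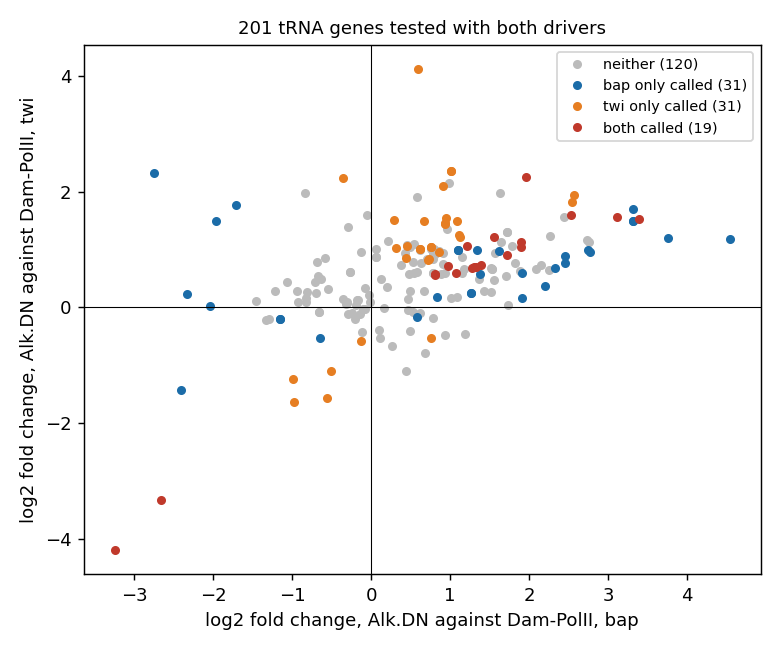
Log2 fold change of Alk.DN against Dam-PolII with bap (x axis) and with twi (y axis) for the 201 tRNA genes tested with both drivers, coloured by where they were called. Of these, 19 were called with both, 31 with bap only, 31 with twi only and 120 with neither, and no point called with both lies in an opposite quadrant.

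Threonine and proline tRNA genes were among those higher in Alk.DN. tRNA:Thr-CGT-1-3, printed above with its site, read 64.4, 52.5 and 47.7 CPM in bap Dam-PolII against 226, 219 and 149 in bap Alk.DN. With twi it read 72.7, 93.2 and 81.0 in Dam-PolII and 180, 178 and 216 in Alk.DN. The groups did not overlap with either driver. The log2 fold change was 1.33 ± 0.19 (SE, edgeR adjusted p = 3.3e-05) with bap, and 0.70 with twi, also called. In Jeb the same site was at 284 and 314 CPM in the replicates 1 and at 34.6 to 59.7 in the other libraries. Its neighbour tRNA:Thr-CGT-1-2, which shares that site, had log2 fold changes of 1.30 ± 0.18 (bap, adjusted p = 2.3e-05) and 0.69 ± 0.11 (twi, 0.00033).

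tRNA:Pro-CGG-2-2, which carries proline and lies on 3L, 989919 bp from the nearest other tRNA gene, read 24.5, 21.5 and 24.6 CPM in bap Dam-PolII against 116, 110 and 155 in bap Alk.DN. The 2 groups lay far apart, and the log2 fold change was 1.91 ± 0.20 (adjusted p = 1.7e-06). Nearly all of it came from sites 336 bp upstream and 499 bp downstream, with means of 60.2 and 66.8 CPM in bap Alk.DN. tRNA:Ala-AGC-2-4, an alanine tRNA gene with GATC in its sequence, read 4.23, 4.20 and 4.24 CPM in bap Dam-PolII against 28.5, 37.9 and 33.7 in bap Alk.DN, again without overlap. Its log2 fold change was 2.45 ± 0.33 (adjusted p = 2.2e-05). With twi both genes had smaller values that were not called, 0.58 (tRNA:Pro-CGG-2-2, adjusted p = 0.025) and 0.77 (tRNA:Ala-AGC-2-4, 0.020).

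Besides tRNA:Thr-CGT-1-2, 3 of the 45 tRNA genes called higher with twi were named from that comparison. Of these, tRNA:His-GTG-1-1 and tRNA:Glu-CTC-5-1Psi were also called higher with bap, at log2 fold changes of 0.80 and 1.21. The values that follow are those with twi. The lysine gene tRNA:Lys-TTT-2-4 read 63.4, 63.4 and 70.8 CPM in Dam-PolII and 179, 170 and 162 in Alk.DN, without overlap. Its log2 fold change was 0.85 ± 0.11 (adjusted p = 6.5e-05). Both of its sites also belong to the window of 7SLRNA:CR32864, the RNA of the signal recognition particle and itself a polymerase III gene. tRNA:Lys-TTT-2-1 shares its only site with 7SLRNA:CR42652, so these genes cannot be told apart. Most of the tRNA:Lys-TTT-2-4 counts came from a site 391 bp downstream, with 54.6 CPM in twi Dam-PolII and 133 in twi Alk.DN. Both flanks of that site, and of the only site of tRNA:Lys-TTT-2-1, occur 2 times in the genome. tRNA:His-GTG-1-1, outside the site described above, read 94.1, 108 and 108 CPM (twi Dam-PolII) against 223, 222 and 216 (twi Alk.DN), at a log2 fold change of 0.57 ± 0.095 (adjusted p = 0.00055). Most of this came from a site 300 bp upstream, inside tRNA:His-GTG-1-2, with 94.1 CPM in twi Dam-PolII and 192 in twi Alk.DN. The left flank of that site occurs 5 times in the genome. The GATC inside tRNA:His-GTG-1-1 read 1.76 and 4.77 CPM, and the windows of these histidine genes share 3 sites. The pseudogene tRNA:Glu-CTC-5-1Psi had the smallest adjusted p among those higher (5.0e-05, log2 fold change 1.06 ± 0.13), but its only site has flanks that occur 32 and 84 times in the genome.

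**Figure D5:**
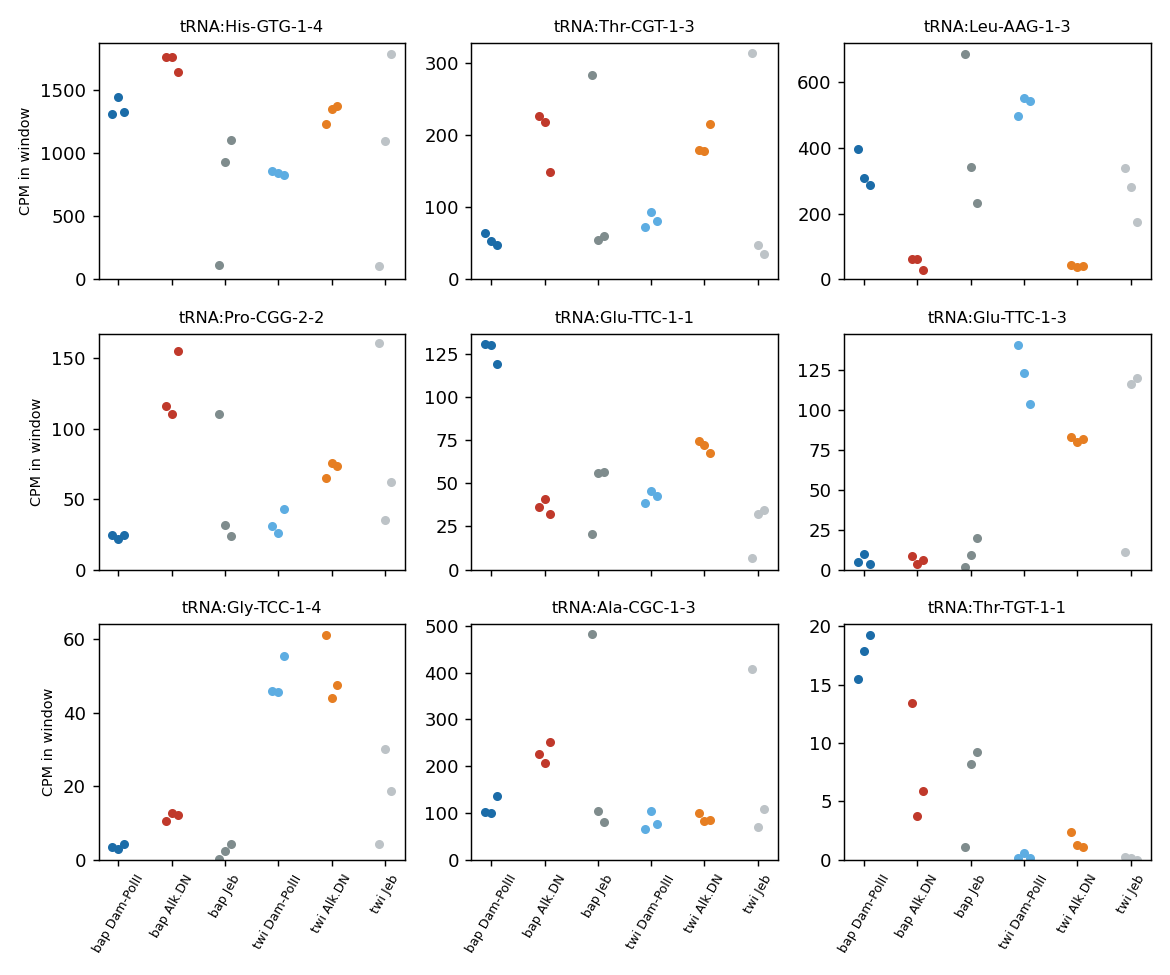
CPM of the window (y axis, linear, its own range in each panel) in each library (points, replicates 1 to 3 from left to right) of the 6 groups, for 9 named tRNA genes. tRNA:Thr-CGT-1-3 lies at 47.7 to 64.4 in bap Dam-PolII and at 149 to 226 in bap Alk.DN, tRNA:Leu-AAG-1-3 goes the other way, and Jeb replicate 1 often lies apart from the other Jeb libraries.

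A pair of leucine tRNA genes on 2R stood out among those lower in Alk.DN. tRNA:Leu-AAG-1-3 read 397, 309 and 286 CPM in bap Dam-PolII against 60.5, 62.5 and 28.3 in bap Alk.DN. With twi it read 498, 552 and 541 in Dam-PolII and 44.3, 38.3 and 41.8 in Alk.DN. No library of either Alk.DN group came near its Dam-PolII group. It fell by 3.24 ± 0.24 on the log2 scale with bap (adjusted p = 3.3e-08) and by 4.19 ± 0.097 with twi (3.3e-10). tRNA:Leu-AAG-1-2, 1253 bp away, fell by 2.66 ± 0.23 (1.7e-07) and 3.33 ± 0.17 (4.2e-08). None of the 4 sites in either window has unique flanks, so the reads there may belong to another copy. 

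A pair of glutamate tRNA genes in an intron of mrj, a protein-coding gene on 2R, was lower with bap. tRNA:Glu-TTC-1-1 read 131, 130 and 120 CPM in bap Dam-PolII against 36.1, 40.9 and 32.5 in bap Alk.DN. With twi it read 38.8, 45.7 and 42.9 in Dam-PolII and 74.6, 72.6 and 67.8 in Alk.DN, so that the bap groups and the twi groups were ordered in opposite ways in CPM. It fell by 2.32 ± 0.18 on the log2 scale with bap (adjusted p = 4.4e-08), the value with twi was 0.23 (adjusted p = 0.17), and the driver-by-Alk.DN interaction was 2.68 ± 0.21 (adjusted p = 2.2e-08). tRNA:Glu-CTC-1-1, whose only site lies 482 bp upstream and is shared with tRNA:Glu-TTC-1-1, fell by 2.04 ± 0.22 with bap. Its interaction was 2.19 ± 0.27 (6.9e-06). With twi, tRNA:Glu-TTC-1-3 in an intron of sm fell by 1.11 ± 0.13 (3.3e-05), and tRNA:His-GTG-1-5, a histidine gene away from the cluster, fell by 2.61 ± 0.42 (0.00044), from 10.6, 16.5 and 7.32 to 3.26, 2.42 and 2.41 CPM.

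The driver comparisons set mesoderm at large against visceral mesoderm. In Dam-PolII, 19 of 201 tested tRNA genes were called higher with twi (9.45%) and 23 lower (11.4%), against 12.9% and 17% of all genes, 29.9% in all. In Alk.DN, 15 of 237 were called higher (6.33%) and 7 lower (2.95%), against 2.02% and 5.73% of all genes, 7.74% in all. The difference between these percentages was not tested. Without twi Alk.DN replicate 1 or 2 the Alk.DN calls fell from 22 to 14 each, and with all 18 libraries in 1 fit they were 0, against 12 in Dam-PolII.

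The 5 named tRNA genes that were higher with twi lay in introns of protein-coding genes. tRNA:Glu-TTC-1-3, in an intron of sm, read 4.66, 9.55 and 3.35 CPM in bap Dam-PolII and 141, 123 and 104 in twi Dam-PolII. Its only site lies 480 bp upstream. All twi libraries exceeded all bap libraries, and the log2 fold change was 4.13 ± 0.30 in Dam-PolII (adjusted p = 3.1e-09) and 3.60 ± 0.27 in Alk.DN (1.1e-05). tRNA:iMet-CAT-1-3, an initiator methionine tRNA gene that starts proteins, lies in an intron of hng3 and read 24.3, 30.2 and 20.6 CPM with bap and 152, 154 and 164 with twi in Dam-PolII, again without overlap. Its log2 fold change was 2.38 ± 0.18 (4.6e-09) in Dam-PolII and 1.19 ± 0.13 (0.00011) in Alk.DN. In twi Dam-PolII its site 394 bp downstream had a mean of 134 CPM, and the GATC inside the gene had 16.2.

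The glycine gene tRNA:Gly-TCC-1-4, in an intron of sr, read 3.50, 2.84 and 4.44 CPM in bap Dam-PolII and 45.9, 45.6 and 55.6 in twi Dam-PolII, with a log2 fold change of 3.50 ± 0.29 (1.7e-08), and 1.95 ± 0.23 in Alk.DN (0.00019). The glutamine gene tRNA:Gln-TTG-2-1, whose only site is the GATC printed above, in an intron of CG12535, was higher by 2.55 ± 0.33 in Dam-PolII (4.8e-06). The aspartate gene tRNA:Asp-GTC-1-9, in an intron of CG9289, was higher by 1.67 ± 0.19 in Alk.DN (0.00014). Counts at a site in an intron come from the tRNA gene and its host alike, and these were not separated.

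The named genes lower with twi carry histidine, glutamate, threonine and alanine. tRNA:Glu-TTC-1-1, described above, fell by 1.84 ± 0.16 on the log2 scale in Dam-PolII (2.6e-08) and was higher by 0.81 in Alk.DN, also called. tRNA:Thr-TGT-1-1, a threonine tRNA gene, read 15.4, 17.8 and 19.2 CPM in bap Dam-PolII and 0.165, 0.609 and 0.122 in twi Dam-PolII, where 3 counts correspond to 0.304 to 0.495 CPM. It fell by 5.95 ± 0.55 on the log2 scale (6.5e-08), a fitted value that depends on few counts. tRNA:Ala-CGC-1-3 and tRNA:Ala-CGC-1-2, alanine genes in an intron of gol, fell by 1.51 ± 0.13 (2.1e-05) and 1.22 ± 0.11 (3.3e-05) in Alk.DN, and from 227, 207 and 251 CPM with bap to 101, 83.6 and 85.2 with twi for tRNA:Ala-CGC-1-3. tRNA:His-GTG-1-4 fell by 0.95 ± 0.074 in Dam-PolII (7.2e-09) and by 0.55 ± 0.065 in Alk.DN (0.00021). Without sites of repeated sequence its values were 0.31 and 0.02, in the opposite direction and not called, so its call rests on the site whose right flank occurs 5 times.

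The interaction of driver and Alk.DN, fitted over the 12 Dam-PolII and Alk.DN libraries, asked whether the Alk.DN difference itself depended on the driver. It was called for 11 of 244 tested tRNA genes (7 higher, 4 lower with twi than with bap), or 2.87% and 1.64%, against 6.06% and 4.72% of all genes, 10.8% in all. The smallest adjusted p values were those of the 2 glutamate genes in mrj. The calls fell to 6 without twi Dam-PolII replicate 3, twi Alk.DN replicate 2 or twi Alk.DN replicate 3, and to 7 without bap Dam-PolII replicate 2.

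Raising Alk signalling with Jeb gave 0 calls among 180 tested tRNA genes with bap and 0 of 209 with twi by edgeR, and 0% of all genes were called in either comparison. At an unadjusted p under 0.05 there were 22 of 180 tRNA genes with bap, against 1684 of all 13651 genes tested. With twi there were 24 of 209, against 1132 of all 14865 genes tested. DESeq2 called 4 and 0, while it called 1.52% and 0.309% of all genes, and the 4, named after their values were seen, were tRNA:Asp-GTC-1-7, tRNA:Pro-CGG-2-3 and, with shared sites, tRNA:Pro-AGG-1-3 and tRNA:Pro-AGG-1-4. The smallest adjusted p of edgeR was 0.061 with bap. Without replicate 1 of Jeb, edgeR called 1.56% of 14259 genes with bap and 1.64% of 15276 with twi. Among the tRNA genes it called 1 of 193 with bap, tRNA:Pro-CGG-2-3 (log2 fold change 4.22), and 4 of 213 with twi: tRNA:His-GTG-1-4 (0.91), tRNA:His-GTG-2-1Psi (0.88), tRNA:Pro-CGG-2-3 (1.42) and tRNA:His-GTG-1-5 (-3.87). tRNA:Pro-CGG-2-3 is a proline gene that overlaps an exon of not. It was named after its values were seen.

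Other genes of the polymerase III system were described from lists by symbol. Of 110 other polymerase III genes, 100 are copies of 5S rRNA, whose repeats share reads, and 91 of 100 of these were called higher in Alk.DN with bap and all 100 with twi. Their median log2 fold change was 0.98 and 0.97. Over all genes 16.8% (bap) and 12% (twi) were called higher. In Jeb against Dam-PolII the median of the 5S rRNA genes was 1.40 with bap and 0.80 with twi, with 0 called. Of the other 10, with 6 and 8 tested, 2 were called higher with each driver and 1 lower. The 7SL genes named above rose by 1.13 and 0.71 (7SLRNA:CR42652 and 7SLRNA:CR32864, bap), and RNaseMRP:RNA, the RNA of an RNA-cutting enzyme, fell by 1.91 ± 0.21 with bap. Of 16 genes for polymerase III subunits and factors, 1 of 14 tested was called higher and 3 lower with bap, and 1 and 1 of 16 with twi. The 33 aminoacyl-tRNA synthetase genes encode the enzymes that load tRNAs and are read by polymerase II. Of 32 tested, 4 were called higher and 6 lower with bap, and 1 and 7 with twi. Of all genes, 16.8% were called higher and 21.1% lower with bap, and 12% and 20.2% with twi. Whether the counts of these lists differ from those shares was not tested.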

How the data were processed

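Targeted DamID libraries from 18 embryo pools were analysed. Reads had been mapped with bowtie2 on FlyBase Release 6, and the table that the authors deposited gives, for every GATC site and library, the raw count of fragment-edge reads. How they placed reads with several matches is not given in the sources used here. All 373716 sites of the 6 arms matched GATC positions of the reference. The 4 deposited peak tables hold the authors' own comparisons and were not used. CPM was the count over the library total. Counts were summed over sites in or within 500 bp of each gene and tested in R 4.3.3 with edgeR 4.0.16 (quasi-likelihood, TMM, filterByExpr with min.count 10, Benjamini-Hochberg over all genes, called under 0.01), after tests on simulated data. Values per site used log2(CPM + 1), Python 3.11.15, pandas 2.3.3 and numpy 2.4.6. Flanks of 50 bases were matched exactly on both strands. The share of all genes called, and of genes with at most 11 sites, stands beside the tRNA counts.

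The tRNA genes, lists and tests were chosen with earlier results of these data known. Named are the 6 genes with the highest and the 2 tested genes with the lowest level, and for each Alk.DN and driver comparison up to 4 genes called in each direction with the smallest adjusted p and no overlap between groups, and up to 2 for the Jeb comparisons and the interaction. Alternatives were DESeq2 1.42.0, other scaling, filters, windows, thresholds, pseudocounts and distance classes, sites of unique flanks, a replicate block, 1 fit of all libraries, and each library left out. The labels do not say whether replicates came from separate crosses, so p-values measure the spread between these libraries. Replicate 3 of bap Alk.DN has a title without its group and was placed by its other labels.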

Additional observations from a re-analysis of the deposited data

Results flagged for a closer look

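For 11 of 244 tested tRNA genes (4.51%) the effect of Alk.DN differed between drivers by the interaction test of edgeR (adjusted p under 0.01). Over all genes the share was 10.8%. Values are given here as the log2 difference of twi minus bap. The effect was higher with twi for tRNA:Ile-AAT-1-3 (5.20), tRNA:Leu-CAA-2-1 (3.58), tRNA:Thr-TGT-1-1 (3.56), tRNA:Glu-TTC-1-1 (2.68), tRNA:Glu-CTC-1-1 (2.19), tRNA:His-GTG-1-4 (0.43) and tRNA:His-GTG-2-1Psi (0.42). It was lower with twi for tRNA:Ala-AGC-2-4 (-1.56), tRNA:Gly-TCC-1-4 (-1.52), tRNA:Pro-CGG-2-2 (-1.20) and tRNA:iMet-CAT-1-3 (-1.16). tRNA:Ile-AAT-1-3, an isoleucine gene, had -2.75 with bap and 2.32 with twi. tRNA:Leu-CAA-2-1, a leucine gene, had -1.96 and 1.49. Of these, the bap values were called and the twi values were not. For the histidine genes, which share 3 sites, the value was called with neither driver. tRNA:Thr-TGT-1-1 had a mean of 0.30 CPM in twi Dam-PolII, where 3 counts correspond to 0.304 to 0.495 CPM.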

How the results depend on the processing

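The calls among tRNA genes are given in the order Alk.DN against Dam-PolII with bap and with twi, Jeb with bap and with twi, the drivers within Dam-PolII and within Alk.DN (twi against bap), and the interaction, where the main counts are 50, 54, 0, 0, 42, 22 and 11. Counts within 1.5 times of these are not repeated. At an adjusted p under 0.05 the calls were 89 (bap), 95 (twi), 46 (drivers in Alk.DN) and 21 (interaction). Scaling by total counts gave 81 (bap) and 98 (twi). With all 18 libraries in 1 fit they were 12 (bap), 2 (twi), 2 (Jeb with bap), 12 and 0 (drivers) and 0 (interaction), as Jeb libraries then enter the estimate of the spread. A window of 1000 bp gave 79 and 86 with bap and twi, and one of 250 bp gave 35 (twi), 14 (drivers in Alk.DN) and 6 (interaction). Sites of unique flanks gave 7 (interaction). DESeq2 gave 4 (Jeb with bap), 35 (drivers in Alk.DN) and 19 (interaction). Leaving out 1 library in turn gave 38 to 47, 24 to 64, 0 to 1, 0 to 4, 34 to 36, 14 to 25 and 6 to 11. With a replicate block the calls were 46, 47, 0, 0, 39, 27 and 11. Libraries with the same number did not deviate together (correlations of -0.013 to 0.020), so the numbers do not pair them.

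The difference from sites at equal distance stayed positive in all 6 groups under each alternative. In the order bap Dam-PolII, bap Alk.DN, bap Jeb, twi Dam-PolII, twi Alk.DN and twi Jeb, a pseudocount of 0.25 CPM gave 1.01, 1.37, 0.95, 1.23, 1.58 and 1.04, and sites with a count in every library gave 0.14, 0.64, 0.22, 0.40, 0.87 and 0.35. Sites of unique flanks gave 0.49, 0.80, 0.47, 0.66 and 1.01 in the first 5 groups. With 20 distance classes it was 0.59 and 0.88 (bap Dam-PolII and Alk.DN) and 0.76 and 1.08 (twi Dam-PolII and Alk.DN), and with a window of 250 bp 0.98 (bap Alk.DN) and 1.16 (twi Alk.DN). Leaving out 1 library gave 0.61 to 0.63, 0.90 to 0.93, 0.55 to 0.66, 0.77 to 0.80, 1.09 to 1.13 and 0.63 to 0.73.

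Of the alternative values of the named genes, 546 kept direction and call, 34 lost the call and 6 changed direction, and 25 of these were in the fit of all 18 libraries. The 6 concern twi against bap in a pair of histidine genes: tRNA:His-GTG-1-4 had 0.31 (Dam-PolII) and 0.022 (Alk.DN) with unique flanks, and tRNA:His-GTG-2-1Psi had 0.46 and 0.20 with unique flanks and 0.30 and 0.015 with a window of 250 bp, which both leave out the site inside tRNA:His-GTG-1-4. Other causes were not tested. A setting in which a gene was not tested is not among the 546, 34 and 6 values. With unique flanks this held for tRNA:Leu-AAG-1-3, tRNA:Leu-AAG-1-2 and tRNA:Glu-CTC-5-1Psi, which have no such site. A window of 250 bp held no site of tRNA:Pro-CGG-2-2, tRNA:Glu-TTC-1-3 or tRNA:Glu-CTC-1-1. Depth limits low genes most: 24 genes had no site and 25 with a site passed no filter. Repeated sequence, neighbouring genes in a window, the absence of a Dam-only library here and the label doubts limit what a level at a tRNA gene means.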

Other observations

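tRNA:Pro-CGG-2-3, a proline tRNA gene on 3L, read 211, 228 and 1147 CPM in bap Jeb against 36.6, 35.1 and 36.9 in bap Dam-PolII and 36.1, 43.5 and 26.8 in bap Alk.DN, so all 3 bap Jeb libraries lay above both other groups. In twi Jeb it read 43.7, 45.0 and 58.4 CPM against 23.8, 18.7 and 21.6 in twi Dam-PolII. The highest value, of bap Jeb replicate 3, is in the library with the fewest counts, 1624349.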
